A study of Homo sapiens with 24 samples.

Results

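CA9 and 9 other genes of the cellular response to low oxygen (CA12, EGLN1, EGLN3, ANKRD37, ADM, VEGFA, NDUFA4L2, BNIP3 and HIF1A) are described here across 24 RNA sequencing libraries of human mammary epithelial cells. They were found by symbol, through their Ensembl identifiers, as 10 of the 60668 rows of the deposited gene count table, and all 10 passed the filter on low counts that left 22158 genes for testing. The 10 genes were chosen by symbol with measured changes of these same libraries already known, CA9 among the first of them. Their levels, folds and counts of calls below are therefore a description, printed without p-values, and nothing is supported with them.

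The cells were MCF-10A, an immortalised and non-tumorigenic line with basal features, grown as 3-dimensional cultures on growth factor reduced Matrigel. The MYC-ER line (genotype MYC.ER) carries the MYC transcription factor fused to the ligand-binding domain of an oestrogen receptor, and 4-hydroxytamoxifen (4-OHT) switches that fusion on. The parental line carries the genotype label wild-type and received 4-OHT on the same schedule. Each line was exposed to 1 µM 4-OHT for 0, 8, 24 or 48 h and every well was collected on day 5, giving 8 groups of 3 replicates. The promoter that drives the fusion, whether the MYC-ER line is 1 clone, the vehicle and the oxygen level are not given in the sources used here. Nothing states that replicates came from separate cultures, so p-values measure only the spread between these libraries.

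Cells sense oxygen through the hypoxia-inducible factors (HIF). In the presence of oxygen the prolyl hydroxylases EGLN1 and EGLN3 modify the alpha subunit HIF1A, the VHL ubiquitin ligase then binds it, and it is degraded. When oxygen is low the alpha subunit accumulates, pairs with ARNT and binds DNA near its target genes at a core of 5 letters, either ACGTG (here the A core) or the same letters beginning with G (here the G core, GCGTG). CA9 and CA12 encode carbonic anhydrases of the cell surface that help to hold intracellular pH, VEGFA and ADM encode secreted peptides that act on blood vessels, BNIP3 acts in mitophagy, and NDUFA4L2 is a mitochondrial protein related to the NDUFA4 subunit. HIF activity is set largely through the stability of the alpha protein, which RNA does not measure.

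Library totals ran from 136860029 to 182438505 counts, and 3 counts, the limit that a count of 0 allows, were worth 0.0164 to 0.0219 CPM (counts in proportion to the TMM-scaled total of their library), counting error only. Pairs of replicates had Spearman correlations of 0.983 to 0.992, and pairs from different groups 0.933 to 0.989. Summed markers of basal mammary epithelium lay between 11295 and 31635 CPM in every library, whereas CD3E and CDH5, which define T cells and endothelium, had 0 counts throughout. Of the 5 leukocyte markers 3 were under 1 CPM in every library and the list summed to 18.3 to 46.5 CPM, and of the 5 endothelial markers 3 were under 1 CPM and the sum was 0.0928 to 2.99 CPM. The mitochondrial share of counts was 9.24% to 9.71% in the MYC-ER libraries at 0 h, the reference of all MYC-ER changes below, and 3.86% to 7.78% in the other libraries, and its part in those changes was not tested. The row for MYC itself held 387 ± 8 CPM in MYC-ER cells at 0 h and 795 ± 2 CPM at 8 h (SD, n = 3). It does not separate the fusion from the cell's own gene, and activation of the fusion by 4-OHT is not an RNA measure, so it checks no label.

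Sequences just upstream of the RefSeq transcription starts (GRCh38.p14) are shown for 6 members because they hold, or lack, the letters that HIF is known to bind. Windows of 250 bases before to 50 bases after the start were found for 8 of the 10 members, with 2 windows for HIF1A. VEGFA and NDUFA4L2 had no entry. Each sequence below runs 5′ to 3′ on the strand of its gene over the 170 bases before the start, in lower case, with the A core, the G core and the E-box CACGTG in capitals on either strand. A core on the opposite strand therefore reads CACGT (A core) or, for the G core, CACGC.
CA9: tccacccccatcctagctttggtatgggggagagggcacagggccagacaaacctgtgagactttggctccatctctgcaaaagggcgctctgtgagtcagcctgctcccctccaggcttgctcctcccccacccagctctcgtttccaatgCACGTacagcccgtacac
EGLN1: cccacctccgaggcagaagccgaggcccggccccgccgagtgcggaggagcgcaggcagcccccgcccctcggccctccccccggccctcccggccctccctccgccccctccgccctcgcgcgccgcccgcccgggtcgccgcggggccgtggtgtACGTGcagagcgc
EGLN3: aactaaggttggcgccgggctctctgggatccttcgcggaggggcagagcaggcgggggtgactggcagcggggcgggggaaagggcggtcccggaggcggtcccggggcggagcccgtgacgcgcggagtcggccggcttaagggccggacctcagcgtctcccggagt
ANKRD37: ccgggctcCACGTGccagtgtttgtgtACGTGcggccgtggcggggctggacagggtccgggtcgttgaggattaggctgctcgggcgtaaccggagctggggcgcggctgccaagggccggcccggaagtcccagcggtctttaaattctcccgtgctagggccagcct
ADM: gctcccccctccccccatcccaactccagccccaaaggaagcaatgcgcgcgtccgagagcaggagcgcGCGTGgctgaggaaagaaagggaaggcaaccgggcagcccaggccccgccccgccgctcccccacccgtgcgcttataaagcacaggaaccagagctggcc
BNIP3: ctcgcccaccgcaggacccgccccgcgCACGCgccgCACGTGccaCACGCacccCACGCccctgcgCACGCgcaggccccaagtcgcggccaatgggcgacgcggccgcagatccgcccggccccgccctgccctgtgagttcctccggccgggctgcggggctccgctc

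The stretches lie at chr9:35673758-35673927 (CA9, plus strand), chr1:231422288-231422457 (EGLN1, minus), chr14:33951075-33951244 (EGLN3, minus), chr4:185396671-185396840 (ANKRD37, plus), chr11:10304903-10305072 (ADM, plus) and chr10:131981924-131982093 (BNIP3, minus). CA9 held 1 A core, on the strand opposite the gene, at positions -18 to -14 from the start, and EGLN1 held 1 at -13 to -9. ANKRD37 had an A core at -143 to -139 and the palindromic E-box at -162 to -157, which contains the A core on both strands and is also the site that MYC is known to bind. BNIP3 carried the E-box at -134 to -129 with 4 G cores on the opposite strand around it, and ADM 1 G core at -101 to -97. In the whole windows, CA12 had G cores from -234 and from 40, HIF1A had 1 from -204, and the EGLN3 window held neither core.

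Counted per window on either strand, the A core stood in 4 of 9 member windows (44.4%) and in 21.4% of the 34943 RefSeq windows of the same length. The G core stood in 4 of 9 (44.4%) against 36.5%, the E-box in 2 of 9 (22.2%) against 7.23%, and either core in 7 of 9 (77.8%) against 48.4%. Among 52 windows of 45 further HIF target genes that are not glycolytic enzymes, the A core stood in 57.7% and either core in 88.5%. A match is a run of letters, not a measured binding site, and no match says only that the letters are not in this window.

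CA9 started low in MYC-ER cells and was the most changed of the 10 genes at 24 and 48 h, with its peak at 24 h. At 8 h the log2 change of EGLN3 (6.46) was slightly larger than that of CA9. The gene (ENSG00000107159.13) lies at chr9:35673856-35681159 on GRCh38. Before 4-OHT the 3 MYC-ER libraries held 0.151, 0.250 and 0.169 CPM of CA9, which is 26 to 44 counts. At 8 h they held 15.01, 13.06 and 17.42 CPM, at 24 h 219.8, 216.9 and 198.2 CPM, and at 48 h 35.7, 36.0 and 32.3 CPM. No 2 of these 4 time groups overlapped. The mean ratios to 0 h were 79.9, 1114 and 182 at the successive times, with log2 changes of 6.31 (SE 0.51), 10.11 (SE 0.54) and 7.50 (SE 0.51). Between 8 and 24 h CA9 was 13.9 times higher, and between 24 and 48 h it was 6.11 times lower.

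In parental cells CA9 held 0.368, 0.251 and 0.488 CPM at 0 h, 0.3904, 0.6142 and 0.883 CPM at 8 h, 0.995, 0.708 and 3.31 CPM at 24 h, and 0.910, 3.04 and 2.39 CPM at 48 h. Every parental library after 24 and 48 h was above every parental library at 0 h, but the replicates differed widely, and neighbouring time groups overlapped. The log2 changes were 0.78 (SE 0.56) at 8 h, 2.18 (SE 0.50) at 24 h and 2.51 (SE 0.49) at 48 h. The 24 h value leans on replicate 3, the 3.31 CPM library, without which the CA9 change is 1.22. At 0 h, MYC-ER cells held less CA9 than parental cells without overlap, at a ratio of 0.514, and this difference did not pass the threshold (log2 difference -0.95, SE 0.69).

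CA9 overlaps ARHGEF39 on the opposite strand over 2011 bases. The libraries were made with a strand-specific kit, but whether counting used strand is not given in the sources used here, so reads of the shared stretch may be assigned to either gene. In MYC-ER cells ARHGEF39 ranged over 1.38 to 1.78 CPM before 4-OHT, 5.50 to 7.56 CPM after 8 h, 23.2 to 25.7 CPM after 24 h and 8.28 to 9.34 CPM after 48 h. In the 12 parental libraries ARHGEF39 held 14.3 to 20.6 CPM while CA9 stayed at or below 3.31 CPM. The part of strand assignment in either row was not tested.

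The 5 genes whose log2 CPM followed CA9 most closely over the 24 libraries, among 10767 genes compared, were SELENON (Pearson r 0.979), VASH2 (0.977), SAMHD1 (0.964), SOX4 (0.961) and EPCAM (0.959). EPCAM, an epithelial surface adhesion protein, averaged 1.93, 23.8, 75.8 and 38.9 CPM over the MYC-ER times and 6.25 to 6.74 CPM in the parental groups. VASH2 averaged 0.269, 1.86, 10.4 and 2.93 CPM over the same MYC-ER times. These correlations describe libraries that share groups. Only genes with a symbol and a mean of at least 10 CPM in their highest group were compared, which left out ANKRD37 and NDUFA4L2. None of the other members compared was among the 5.

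EGLN3, the hydroxylase that is itself known as a HIF target, was the only member besides CA9 with a log2 change above 3 in any comparison with 0 h. The gene (ENSG00000129521.14, chr14:33924231-34462774) held 0.911, 0.601 and 0.806 CPM in the MYC-ER libraries at 0 h and 62.2, 51.8 and 90.1 CPM at 8 h. At 24 h it held 105.1, 102 and 93.2 CPM and at 48 h 17.6, 18.5 and 16.9 CPM. All 4 groups stood apart, with log2 changes against 0 h of 6.46 (SE 0.39), 7.02 (SE 0.39) and 4.52 (SE 0.36). Unlike CA9, EGLN3 had reached most of its peak level by 8 h, and the 24 h mean was 1.47 times the 8 h mean.

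Parental EGLN3 held 5.31, 4.22 and 7.33 CPM at 0 h, 10.7, 11.4 and 20.9 CPM at 8 h, 14.5, 14.7 and 28.8 CPM at 24 h, and 14.6, 29.1 and 25.9 CPM at 48 h. The times after 4-OHT overlapped each other, and all 9 treated libraries were above the 0 h libraries. The ratios to 0 h were 2.55, 3.44 and 4.13. Before 4-OHT, the parental level of EGLN3 was 7.27 times that of MYC-ER cells. At 48 h the 2 lines overlapped, since MYC-ER had come back to 17.7 ± 0.8 CPM and parental stood at 23.2 ± 7.6 CPM (SD, n = 3). The gene span in the annotation also covers SPTSSA on the same strand, so a read-through transcript could join the counts of both, and its part was not tested.

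EGLN1, the main oxygen-sensing hydroxylase of most cells (ENSG00000135766.9, chr1:231363751-231425044), changed little beside EGLN3. MYC-ER libraries held 121.7, 122.2 and 120.9 CPM of EGLN1 at 0 h, 144.6, 112 and 152.9 at 8 h, 155.8, 159.5 and 155.2 at 24 h, and 103, 101.5 and 97.8 at 48 h. The 24 h libraries were above all others of the line, the 48 h libraries were below the 0 h libraries, and the 8 h libraries overlapped 0 h. The log2 changes of EGLN1 were 0.17 (SE 0.09), 0.37 (SE 0.09) and -0.27 (SE 0.09). The 8 h value becomes 0.29 and passes the threshold without replicate 2, the 112 CPM library. The 48 h value no longer passes without MYC-ER 0 h replicate 2 (-0.27) or 48 h replicate 3 (-0.25). In parental cells the group means were 77.7, 99.5, 98.6 and 99.2 CPM, with no overlap between 0 h and any later time.

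HIF1A itself had its highest levels in parental cells. The gene (ENSG00000100644.17, chr14:61695513-61748259) held 158.4, 176.6 and 156.6 CPM in MYC-ER cells at 0 h, 204.5, 208 and 197.9 at 8 h, 193.7, 170.9 and 173.9 at 24 h, and 153.6, 154.8 and 156.4 at 48 h. Parental libraries held 206.3, 264 and 157.9 CPM at 0 h, 247.6, 248.1 and 243.6 at 8 h, 300.6, 300.2 and 303.9 at 24 h, and 318.3, 297.9 and 337.6 at 48 h. Every parental library after 4-OHT was above every MYC-ER library. The parental 0 h group spanned 157.9 to 264 CPM of HIF1A and overlapped the MYC-ER groups at 0, 8 and 24 h, so folds against it carry that spread. HIF1A changes against 0 h were 0.31 (SE 0.11), 0.13 (SE 0.11) and -0.08 (SE 0.11) on the log2 scale in MYC-ER cells, and 0.24 (SE 0.11), 0.53 (SE 0.11) and 0.60 (SE 0.11) in parental cells. Without parental 0 h replicate 2, the 264 CPM library, the parental 8 h change is 0.44 and passes the threshold, and the difference between the lines at 0 h moves from -0.35 to -0.15 and no longer passes it. The MYC-ER 8 h change of HIF1A no longer passes without MYC-ER 0 h replicate 3, where it is 0.28.

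**Figure D1:**
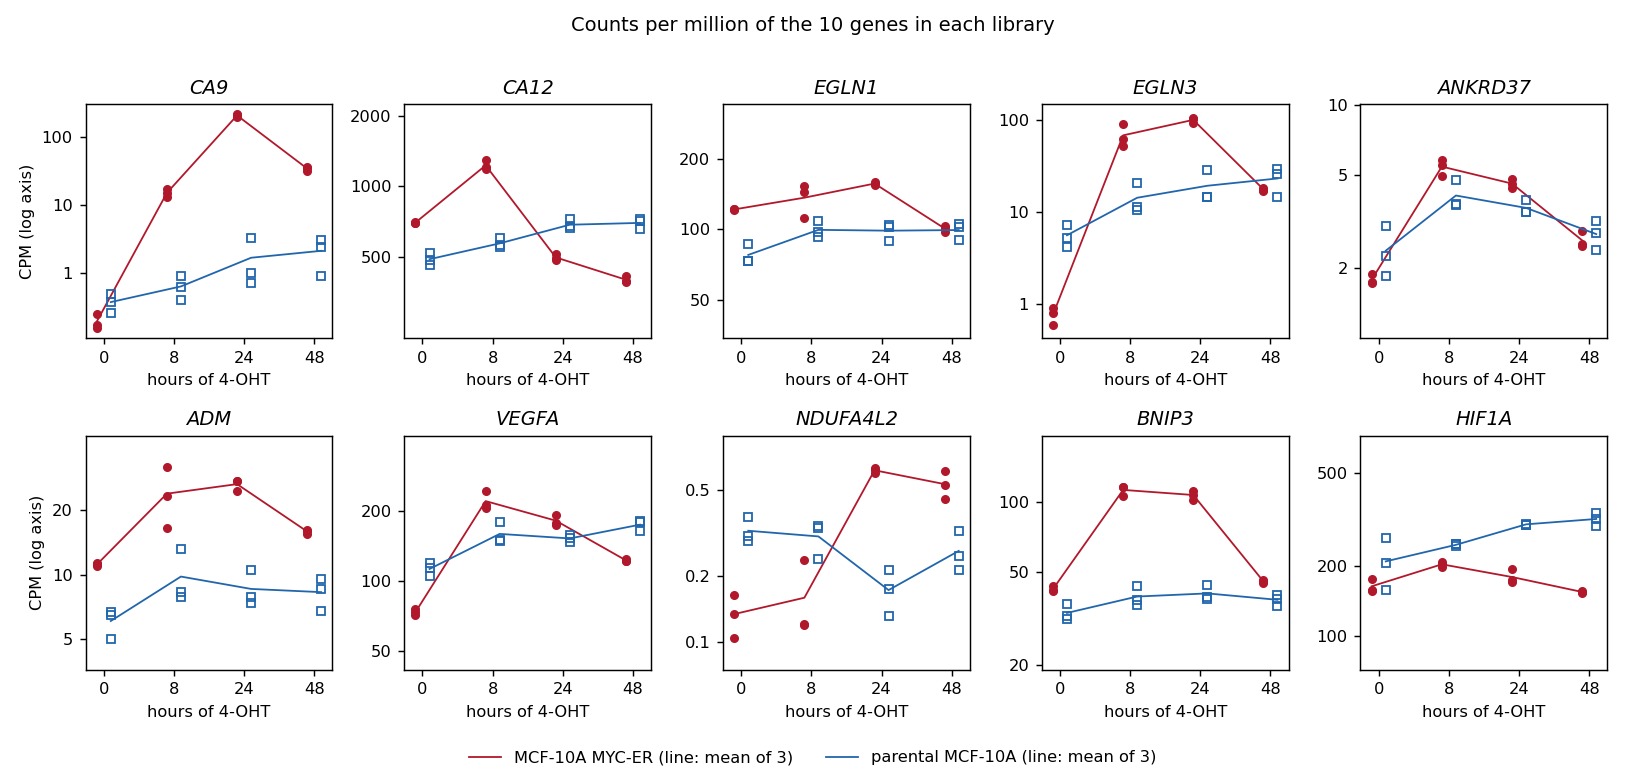
CPM of each of the 10 genes (log axis, with its own scale in each panel) against hours of 4-OHT, with 1 point per library and lines through the means of 3 libraries. CA9 and EGLN3 peak at 24 h in MYC-ER cells (filled circles), while HIF1A is highest in parental cells (open squares) at 48 h.

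CA12, the other surface carbonic anhydrase of the set, moved unlike CA9. The gene (ENSG00000074410.14, chr15:63321378-63382161) held 700.4, 703.4 and 699 CPM in MYC-ER cells at 0 h, 1214, 1186 and 1292 at 8 h, 514.1, 492.6 and 485.1 at 24 h, and 389.2, 395.1 and 413.2 at 48 h. The 4 time groups stood apart, above the start at 8 h and below it from 24 h, with log2 changes of 0.81 (SE 0.06), -0.50 (SE 0.06) and -0.81 (SE 0.06). In parental cells the CA12 means were 488.5, 571, 686.1 and 698.4 CPM, higher than 0 h without overlap at each later time. Per kilobase of exon, CA12 was more abundant than CA9 in MYC-ER cells at 0 h (95.8 against 0.114 CPM per kb) and less abundant at 24 h (68.0 against 127 CPM per kb).

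No other carbonic anhydrase tested rose as far as CA9 in MYC-ER cells. Their highest log2 changes from 0 h were 2.17, 3.09 and 1.07 at 8, 24 and 48 h, and the lowest was -4.38, at 48 h. From 24 to 48 h the lowest change was -7.47, beyond the -2.61 of CA9. Of 13 listed, 8 passed the filter, and CA1, CA4, CA5A and CA7 had 0 counts in all libraries. Under 1 CPM in every library were 8 of the 13, so the counts and median below include such genes. In MYC-ER cells 4 rose and 1 fell at 24 h (median log2 change 0.55, against -0.02 over all genes tested), and the 62.5% called is near the 61.6% of all genes. CA2, a cytosolic form, rose from 14.4 ± 0.3 to 27.6 ± 2.1 CPM at 24 h (log2 change 0.94, SE 0.09, edgeR quasi-likelihood test with Benjamini-Hochberg adjustment, adjusted p 1.17e-08) and stood at 14.6 ± 0.4 CPM at 48 h. CA11, which lacks catalytic activity, fell to 8.64 ± 0.16 CPM at 8 h and rose to 31.7 ± 1.0 CPM at 24 h from 15.3 ± 0.2 CPM (edgeR, adjusted p 4.71e-09 and 8.44e-11). CA13 rose to 14.3 ± 1.7 CPM at 8 h from 5.02 ± 0.59 CPM (edgeR, adjusted p 8.25e-12), the time at which CA12 was highest.

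VEGFA, the growth factor of blood vessel endothelium (ENSG00000112715.22, chr6:43770184-43786487), was highest at 8 h in MYC-ER cells. Its libraries held 73.7, 75.6 and 71.7 CPM at 0 h, 205, 211 and 242.9 at 8 h, 174.4, 191.8 and 177.3 at 24 h, and 122.1, 121.3 and 124.2 at 48 h, all 4 groups apart. Parental VEGFA libraries held 113.1, 119.6 and 105 CPM at 0 h, 149.8, 148.8 and 178.4 at 8 h, 147.1, 157 and 152.1 at 24 h, and 178.7, 180.2 and 163.6 at 48 h. Each later parental group was above 0 h without overlap, though the later groups overlapped among themselves except 24 h with 48 h. The ratios to 0 h were 2.98, 2.46 and 1.67 in MYC-ER cells and 1.41, 1.35 and 1.55 in parental cells. At 0 h the MYC-ER level was 1.53 times lower than the parental one.

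ADM, the vasodilator peptide adrenomedullin (ENSG00000148926.10, chr11:10304680-10307397), was higher in every MYC-ER group than in the parental group of the same hour. MYC-ER libraries held 11.2, 10.9 and 11.3 CPM of ADM at 0 h, 23.3, 16.6 and 31.9 at 8 h, 27.4, 27.5 and 24.7 at 24 h, and 15.9, 16.2 and 15.5 at 48 h. Parental libraries held 6.46, 5.01 and 6.70 CPM at 0 h, 8.24, 7.87 and 13.2 at 8 h, 7.39, 7.81 and 10.5 at 24 h, and 6.74, 9.51 and 8.55 at 48 h. All treated libraries of each line were above its 0 h libraries. The ADM log2 changes were 1.11 (SE 0.20), 1.25 (SE 0.20) and 0.52 (SE 0.20) in MYC-ER cells and 0.69 (SE 0.20), 0.50 (SE 0.20) and 0.45 (SE 0.20) in parental cells. Of the parental ones the 8 h change passed the threshold, and it fell to 0.41 and did not pass without replicate 3, the 13.2 CPM library. The MYC-ER 48 h change of ADM did not pass when any 1 of its 6 libraries was left out, although its value stayed between 0.50 and 0.53.

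Receptors for these secreted factors were followed beside them. Of 14 further ligands and receptors of the VEGF and ADM families, 10 passed the filter, and FLT1, RAMP2 and RAMP3 had 0 counts in all libraries. At 8 h in MYC-ER cells 5 rose and 5 fell, where 32.2% of all genes rose and 35.4% fell. KDR, the main signalling receptor for VEGFA, averaged 39.1 ± 2.5, 0.258 ± 0.073, 1.53 ± 0.11 and 25.6 ± 0.7 CPM over the successive MYC-ER times (SD, n = 3). Its 8 h fall was 7.24 on the log2 scale (log2 change -7.24, SE 0.22, edgeR adjusted p 2.64e-17), and parental KDR had group means between 0.553 and 1.67 CPM. The summed endothelial markers were 0.0928 to 0.250 CPM in MYC-ER cells at 0 h, where KDR was highest, and 2.18 to 2.73 CPM at 8 h, where it was lowest. NRP2, a co-receptor, rose from 4.62 ± 0.29 to 59.7 ± 3.6 CPM at 24 h in MYC-ER cells (log2 change 3.69, SE 0.08, edgeR adjusted p 2.34e-20). VEGFC, the ligand of lymphatic vessels, rose from 0.730 ± 0.144 to 11.3 ± 0.2 CPM at 8 h (edgeR adjusted p 9.65e-16), and PGF from 1.47 ± 0.08 to 9.25 ± 0.84 CPM at 24 h (edgeR adjusted p 1.35e-09). The ADM receptor CALCRL was below 1 CPM in all groups, at 0.182 to 0.590 CPM in the means.

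BNIP3, ANKRD37 and NDUFA4L2 complete the set. BNIP3 (ENSG00000176171.11, chr10:131966455-131982013) held 41.4, 41.8 and 43.5 CPM in MYC-ER cells at 0 h, 115.2, 105.7 and 115.5 at 8 h, 107, 111.4 and 101.5 at 24 h, and 46.1, 44.9 and 45.6 at 48 h. The 8 and 24 h libraries overlapped and stood above the others, and 48 h was again within 1.08 times of 0 h. Parental BNIP3 libraries ranged from 31.51 to 43.95 CPM over all 4 times. The parental BNIP3 changes were 0.23 (SE 0.07) at 8 h and 0.19 (SE 0.07) at 48 h, and replicates of these groups overlapped 0 h. Both changes passed with all libraries, the first no longer without 0 h replicate 1 (0.21) or 8 h replicate 3 (0.15). The second no longer passed without 0 h replicate 1 (0.16), 0 h replicate 2 (0.15), 48 h replicate 2 (0.15) or 48 h replicate 3 (0.18). BNIP3L, the close relative of BNIP3, did not pass in MYC-ER cells at 8 h (41.3 ± 1.8 to 38.1 ± 1.1 CPM, log2 change -0.12, SE 0.07) and rose in parental cells at 48 h from 24.5 ± 2.4 to 42.8 ± 2.1 CPM (edgeR adjusted p 4.43e-07).

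ANKRD37, a small ankyrin repeat protein (ENSG00000186352.9, chr4:185396021-185400628), was low throughout. It held 1.89, 1.73 and 1.75 CPM in MYC-ER cells at 0 h, 5.55, 4.95 and 5.82 at 8 h, 4.84, 4.58 and 4.39 at 24 h, and 2.48, 2.88 and 2.53 at 48 h, with all 4 groups apart. Parental means of ANKRD37 were 2.38, 4.09, 3.62 and 2.80 CPM, and the 48 h libraries overlapped those at 0 h. This was the 1 member for which both lines were highest at 8 h and lower at each later time in the means, with ratios to 0 h of 3.04 and 1.72 at 8 h. At 0 h the lines overlapped, and the ANKRD37 difference of -0.41 (SE 0.15) no longer passed without MYC-ER 0 h replicate 2 (-0.39), MYC-ER 0 h replicate 3 (-0.39) or parental 0 h replicate 3 (-0.17). Without that parental library the parental 48 h change of ANKRD37 passed, at 0.48. UFSP2 overlaps ANKRD37 on the opposite strand over 1089 bases.

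NDUFA4L2 (ENSG00000185633.10, chr12:57234903-57240715) was under 1 CPM in every library, at 17 to 106 counts. SHMT2, a mitochondrial enzyme of serine metabolism with a median of 30135 counts, overlaps it on the opposite strand over 33 bases. SHMT2 averaged 150.1, 173.9, 202.2 and 190.1 CPM over the MYC-ER times, and the part of its reads in the NDUFA4L2 row was not tested. MYC-ER libraries held 0.104, 0.164 and 0.134 CPM of NDUFA4L2 at 0 h, 0.239, 0.121 and 0.120 at 8 h, 0.617, 0.631 and 0.596 at 24 h, and 0.611, 0.529 and 0.453 at 48 h. The 0 and 8 h libraries overlapped, and all 24 and 48 h libraries were above both, with log2 changes of 0.24 (SE 0.29), 2.19 (SE 0.28) and 1.98 (SE 0.28). Parental NDUFA4L2 ran the other way at 24 h, with 0.175, 0.214 and 0.131 CPM against 0.307, 0.291 and 0.375 CPM at 0 h, a log2 change of -0.90 (SE 0.28). That change no longer passed without parental 0 h replicate 3 (-0.77) or 24 h replicate 3 (-0.74). NDUFA4, the abundant relative, was between 85.2 and 164.2 CPM in the group means and fell in MYC-ER cells at 48 h (log2 change -0.32, SE 0.10, edgeR adjusted p 0.0108).

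**Figure D2:**
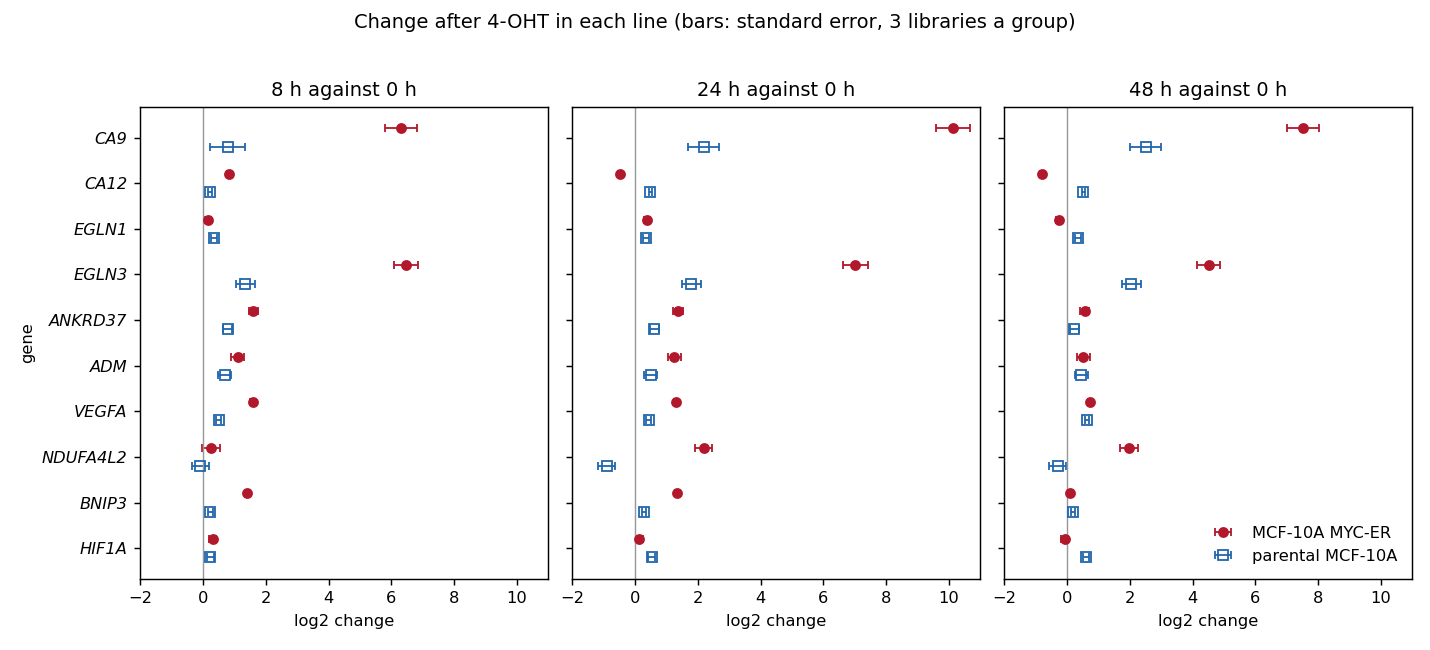
Log2 change from 0 h (horizontal axis) of each gene at 8, 24 and 48 h in MYC-ER (filled circles) and parental cells (open squares), with bars of 1 standard error and 3 libraries per group. CA9 and EGLN3 lie farthest to the right in MYC-ER cells, and CA12 lies left of 0 at 24 and 48 h in MYC-ER cells alone.

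Ordered by their group means, 4 members (CA12, ANKRD37, VEGFA and BNIP3) were highest in MYC-ER cells at 8 h, 5 (CA9, EGLN1, EGLN3, ADM and NDUFA4L2) in MYC-ER cells at 24 h, and HIF1A in parental cells at 48 h. Of these tops, BNIP3 and ADM at 8 and 24 h, NDUFA4L2 at 24 and 48 h and HIF1A at 24 and 48 h did not differ beyond the spread of their replicates from the next group. The lowest group was MYC-ER at 0 h for 5 members, parental at 0 h for 3 and MYC-ER at 48 h for 2, CA12 and HIF1A.

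Calls at an adjusted p under 0.05 (edgeR quasi-likelihood test, Benjamini-Hochberg over all genes) were frequent over the whole table, and the members are read against that share. In MYC-ER cells against 0 h, 8 of 10 members were called at 8 h, all higher, where 67.6% of all genes tested were called. At 24 h 9 of 10 were called, 8 higher and 1 lower, against 61.6%, and at 48 h 8 of 10, 6 higher and 2 lower, against 44.1%. From 8 to 24 h 4 of 10 were called, 2 in each direction, against 55.5%, and from 24 to 48 h 8 of 10, all lower, against 53.7%. In parental cells 7 of 10 were called at 8 h, all higher, against 31.0%, 9 of 10 at 24 h, 8 higher and 1 lower, against 42.9%, and 7 of 10 at 48 h, all higher, against 40.5%. With a spread estimated from the groups compared alone, 2 members were called in parental cells at 8 h, and calls over all genes tested fell to 7.41%. Between the lines at 0 h, 9 of 10 were called, 4 higher and 5 lower in MYC-ER cells, against 64.3%.

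The median log2 change of the 10 genes was 1.26, 1.32 and 0.54 at 8, 24 and 48 h in MYC-ER cells and 0.43, 0.50 and 0.48 in parental cells, whereas the median over all genes tested lay between -0.10 and 0.03 in the MYC-ER comparisons. The test of the difference itself, MYC-ER change less parental change, called 6 of 10 members at 8 h, all larger in MYC-ER cells, where 55.2% of all genes were called. At 24 h it called 9 of 10, 7 in that direction and 2 (CA12 and HIF1A) in the other, against 54.5%. At 48 h it called 6 of 10, 3 in each direction, against 45.0%. These shares include genes chosen for their changes, and nothing is read from them.

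To see the rest of the pathway, 45 further HIF targets that are not glycolytic enzymes were listed from general knowledge, of which 44 passed the filter. In MYC-ER cells 31 rose and 6 fell at 8 h, 35 rose and 6 fell at 24 h, and 22 rose and 9 fell at 48 h, with median log2 changes of 1.05, 1.22 and 0.38. Over all genes tested 32.2% rose and 35.4% fell at 8 h, 30.4% and 31.2% at 24 h, and 23.4% and 20.7% at 48 h. From 24 to 48 h 4 rose and 34 fell, with a median of -0.95, against 28.2% and 25.5% of all genes. In parental cells 23 rose and 2 fell at 8 h, 24 rose and 5 fell at 24 h, and 25 rose and 3 fell at 48 h, with medians of 0.28, 0.37 and 0.32, where 15.0%, 21.2% and 20.4% of all genes rose and 16.0%, 21.7% and 20.1% fell. With the spread of the compared groups alone, 14 in place of 25 genes passed in parental cells at 8 h and 17 in place of 28 at 48 h, where that fit called 7.41% and 16.6% of all genes tested. The MYC-ER change differed from the parental change for 36 genes at 8 h (28 larger, 8 smaller), 36 at 24 h (30 and 6) and 26 at 48 h (12 and 14), which is 81.8%, 81.8% and 59.1% of those tested against 55.2%, 54.5% and 45.0% of all genes. The list was drawn up with earlier results of these libraries known.

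**Figure D3:**
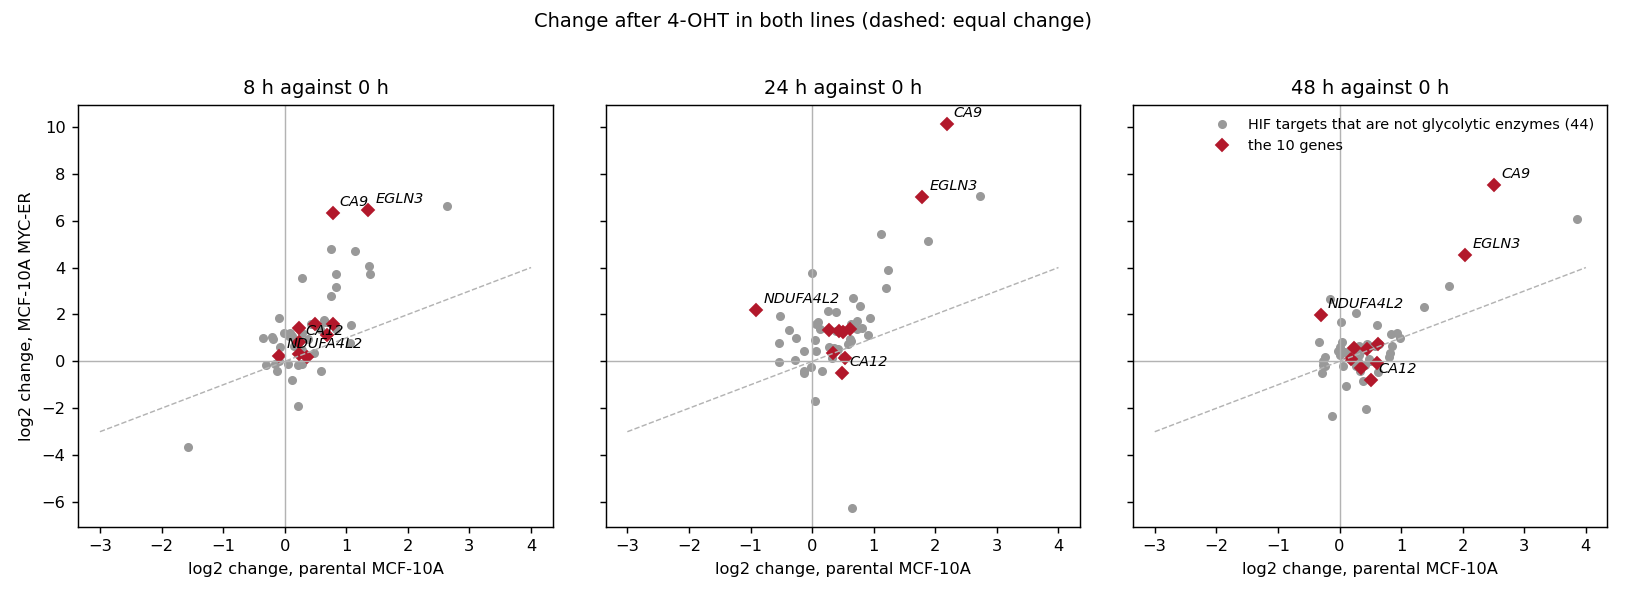
Log2 change from 0 h in parental (horizontal axis) and MYC-ER cells (vertical axis) at 8, 24 and 48 h for the 10 genes (red diamonds) and 44 further HIF targets (grey), with the dashed line marking equal change. At 24 h 35 of the 44 rose in MYC-ER cells, and most points lie above the dashed line, with CA9 at the top.

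Of the listed targets, STC1, a secreted glycoprotein hormone, had the largest MYC-ER rise at 8 and 24 h, from 0.115 ± 0.025 to 11.4 ± 3.4 and 15.6 ± 2.4 CPM (log2 change 6.62, SE 0.50, and 7.07, SE 0.51, edgeR adjusted p 1.08e-10 and 5.58e-11). LOXL2, a collagen-crosslinking enzyme, rose in both lines, to 71.1 ± 4.7 CPM at 24 h from 2.05 ± 0.31 CPM in MYC-ER cells and to 12.1 ± 3.7 CPM from 3.27 ± 0.82 CPM in parental cells (log2 change 5.12 and 1.88, edgeR adjusted p 1.83e-13 and 3.74e-06). PPFIA4 rose from 1.33 ± 0.17 to 56.4 ± 6.9 CPM at 24 h in MYC-ER cells (edgeR adjusted p 1.62e-14).

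Some listed targets went the other way in MYC-ER cells. LOX, the crosslinking enzyme related to LOXL2, fell from 242 ± 6 CPM to 65.4 ± 3.9, 76.1 ± 2.9 and 58.4 ± 2.0 CPM at the successive times (log2 changes -1.89, -1.67 and -2.05, edgeR adjusted p 1.36e-11, 1.22e-10 and 1.55e-11). P4HA2, a collagen prolyl hydroxylase, fell from 149.2 ± 0.3 to 106.2 ± 0.8 CPM at 24 h, and ZNF395 from 290 ± 2 to 167.7 ± 24.0 CPM at 8 h (edgeR adjusted p 1.1e-07 and 4.19e-06). Other crosslinking and hydroxylase genes of the list need not share these directions, as LOXL2 shows. CXCR4, a chemokine receptor, fell in MYC-ER cells at 8 h to 0.194 ± 0.064 CPM (log2 change -3.67, SE 0.30, edgeR adjusted p 3.42e-10), and its 24 h level of 2.45 ± 0.18 CPM did not pass the test against 0 h. At 48 h CXCR4 was at 15.7 ± 0.8 against 2.48 ± 0.13 CPM at 0 h (log2 change 2.66, SE 0.26, edgeR adjusted p 2.29e-08) and BHLHE41 at 18.3 ± 0.2 against 4.35 ± 0.07 CPM (edgeR adjusted p 5.74e-12).

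In parental cells ANGPTL4, a secreted regulator of lipoprotein lipase, rose from 50.6 ± 12.0 to 131.4 ± 24.9 CPM at 8 h (log2 change 1.38, SE 0.18, edgeR adjusted p 1.17e-05). MIR210HG, the host transcript of a hypoxia-induced microRNA, rose from 7.33 ± 1.66 to 15.5 ± 3.5 CPM at the same time (edgeR adjusted p 5.76e-05). At 48 h NDRG1 rose from 561.7 ± 55.2 to 1073 ± 248 CPM and PDK1, a kinase that limits pyruvate entry into mitochondria, from 17.8 ± 4.1 to 32.0 ± 0.8 CPM (edgeR adjusted p 0.000138 and 3.33e-06). Among falls of genes with at least 10 CPM in the higher group and no overlap of replicates, FAM162A was at a log2 change of -0.26 (SE 0.07) at 24 h and -0.23 (SE 0.07) at 48 h, NARF at -0.30 (SE 0.07) at 8 h and -0.28 (SE 0.07) at 24 h and P4HA2 at -0.28 (SE 0.06) at 48 h. Less abundant genes, named after their values were seen, fell further, with CXCR4 at -1.56 (SE 0.30) at 8 h, from 0.530 to 0.178 CPM in the means, and RAB20 at -0.54 (SE 0.14) at 24 h, from 5.44 to 3.74 CPM (edgeR adjusted p 0.000541 and 0.00296). The FAM162A falls at 24 and 48 h and the NARF fall at 24 h no longer passed without parental 0 h replicate 3, at -0.11, -0.07 and -0.18.

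The glycolytic HIF targets, 17 enzymes and carriers, were kept apart because MYC is also known to regulate them. In MYC-ER cells 15 rose and 1 fell at 8 h and again at 24 h, and 8 rose and 3 fell at 48 h, with medians of 1.01, 1.23 and 0.07. In parental cells 1 rose and 4 fell at 8 h, 4 rose and 3 fell at 24 h, and 4 rose and 6 fell at 48 h, with medians of 0.00, -0.02 and -0.14. The shares called were 94.1%, 94.1% and 64.7% in MYC-ER cells against 67.6%, 61.6% and 44.1% of all genes, and 29.4%, 41.2% and 58.8% in parental cells against 31.0%, 42.9% and 40.5%. The non-glycolytic list thus had 23 of 44 genes up in parental cells at 8 h where the glycolytic list had 1 of 17, and this contrast between lists was not tested. At 0 h 1 glycolytic target was higher and 15 lower in the MYC-ER line than in the parental line. Of all genes tested, 31.6% were called higher and 32.7% lower in that comparison.

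Of the HIF machinery genes other than the members (14 listed, 14 tested), 5 rose and 5 fell at 8 h in MYC-ER cells, 3 and 9 at 24 h and 1 and 6 at 48 h, which is 71.4% and 85.7% called at 8 and 24 h and 7 of 14 at 48 h, against 67.6%, 61.6% and 44.1% of all genes. In parental cells 1 rose and 3 fell at 8 h, 6 and 3 at 24 h and 7 and 3 at 48 h (28.6%, 64.3% and 71.4% against 31.0%, 42.9% and 40.5%). EPAS1, the second HIF alpha subunit, rose from 237.2 ± 7.0 to 526.4 ± 19.1 CPM at 8 h in MYC-ER cells and was at 156.7 ± 10.8 CPM at 24 h (log2 change 1.15 and -0.60, SE 0.08 each, edgeR adjusted p 5.08e-11 and 1.67e-06). ARNT, the shared beta subunit, fell from 134.3 ± 6.3 to 55.2 ± 0.3 CPM at 8 h (log2 change -1.28, SE 0.06, edgeR adjusted p 5.73e-14), while its relative ARNT2 rose from 0.572 ± 0.073 to 3.28 ± 0.24 CPM (edgeR adjusted p 6.26e-13). HIF1AN, which hydroxylates HIF alpha to block its coactivators, fell by 0.58 at 24 h (log2 change, edgeR adjusted p 2.79e-09), as did the coactivator genes EP300 and CREBBP, by 0.37 and 0.41 (edgeR adjusted p 0.00865 and 0.000121). VHL had group means of 37.2 to 53.3 CPM. EGLN2, the third hydroxylase, fell in parental cells at each time, at log2 changes of -0.36, -0.38 and -0.42 (edgeR adjusted p 0.025, 0.0131 and 0.00612). The parental 0 h libraries held 69.0, 53.5 and 71.8 CPM of EGLN2, and those at 8 and 48 h overlapped them.

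Replicate libraries of the same group also differed from each other in ways the members shared. After the group mean was taken from each library's log2 CPM, EGLN3 went with ADM (Pearson r 0.889, 24 libraries), BNIP3 (0.860), ANKRD37 (0.807) and CA9 (0.799). CA12 (0.53) and EGLN1 (0.473) lay between. VEGFA (0.240), NDUFA4L2 (-0.283) and HIF1A (-0.419) did not go with EGLN3 in this way. The widest HIF1A deviations were 0.366 and -0.376, in parental 0 h replicates 2 and 3, where EGLN3 deviated by -0.376 and 0.421. The spread lay mainly in parental cells. EGLN3 was above its group mean in parental replicate 3 at 0, 8, 24 and 48 h, with log2 deviations of 0.42, 0.62, 0.65 and 0.22. It was below that mean in parental replicate 1 at the same times, with deviations of -0.04, -0.35, -0.34 and -0.61. CA9 deviated by 1.31 in parental 24 h replicate 3 and by -1.04 in 48 h replicate 1. In MYC-ER cells at 8 h, replicate 3 was above the mean for EGLN3 (0.44) and ADM (0.46), and replicate 2 was below it (-0.35 and -0.48). The median deviation of the 44 further HIF targets went with EGLN3 (r 0.831) and ADM (r 0.865), and with HIF1A at r -0.02. These correlations describe values that share a library and its scaling. What the replicate numbers stand for is not given in the sources used here. In bulk RNA, fewer cells that express a gene and less RNA per cell cannot be told apart.

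**Figure D4:**
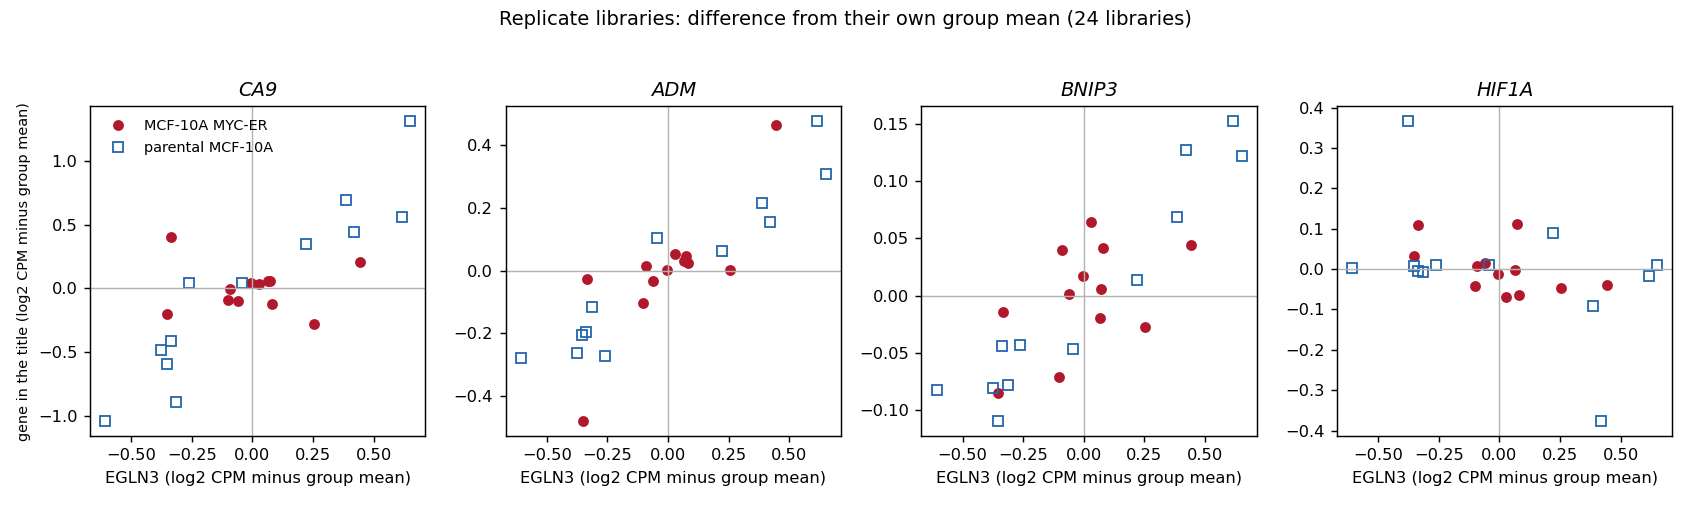
Difference of each library from its own group mean in log2 CPM, EGLN3 on the horizontal axis and CA9, ADM, BNIP3 and HIF1A on the vertical axes, for 12 MYC-ER (filled) and 12 parental (open) libraries. Points for CA9, ADM and BNIP3 rise with EGLN3 (r 0.799, 0.889 and 0.860), and those for HIF1A do not (r -0.419).

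Across all 24 libraries, groups included, the strongest pairs of members in log2 CPM were EGLN3 with VEGFA (Pearson r 0.915) and ADM with BNIP3 (r 0.904). CA9 and EGLN3 gave r 0.809, whereas CA12 and NDUFA4L2 went opposite ways (r -0.757). EGLN3 and VEGFA thus went together between groups and hardly within them. The same reservation on shared libraries and groups holds for these values.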

How the data were processed

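RNA was measured by polyadenylated, strand-specific sequencing (paired reads) in 24 libraries of 2 lines at 4 times. The authors deposited 1 table of gene counts, whole numbers that were not normalized, and the submitters' processing notes name Trimmomatic 0.39, STAR, StringTie 2.1.3b and GRCh38 without roles. The annotation release, strand setting and handling of reads with several matches are not given in the sources used here, and the counts may be estimates derived from coverage. PCR copies were not marked.

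Groups came from the labels. In edgeR 4.0.16 (R 4.3.3), filterByExpr kept 22158 genes, TMM set the scaling, and 1 mean per group was fitted over all libraries (common coefficient of variation 0.151). Quasi-likelihood tests, two-sided, were adjusted by Benjamini-Hochberg over all genes, at a threshold of 0.05. SE is the log2 change divided by the root of F, and log2 CPM uses a prior count of 2. limma 3.58.1 and DESeq2 1.42.0 served alternatives listed under the dependence on processing. Replicate numbers were not used to pair samples in the main fit.

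The members and all gene lists were chosen with earlier results of these data known. Of the listed HIF targets, the named ones are the 3 largest rises and 3 largest falls against 0 h that passed, with at least 10 CPM in the higher group and no overlap of replicates. One gene that this rule names is not reported here. Genes of the machinery, anhydrase, paralogue and ligand lists, and the 5 closest to CA9, could also be named. ARHGEF39, SPTSSA, UFSP2 and SHMT2 were named after the annotation showed their overlap. Positions and exon lengths come from GENCODE 29 (GRCh38).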

Additional observations from a re-analysis of the deposited data

Results flagged for a closer look

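The change after 4-OHT differed between the lines (interaction term of the edgeR quasi-likelihood fit past the threshold) for several members. Values are the MYC-ER log2 change less the parental one, and a positive value means a larger change in MYC-ER cells. All were chosen with such results known and are given as values only.

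At 8 h the differences were 5.532 for CA9, 0.5871 for CA12, 5.109 for EGLN3, 0.8204 for ANKRD37, 1.079 for VEGFA and 1.176 for BNIP3. At 24 h they were 7.929 for CA9, 5.235 for EGLN3, 3.09 for NDUFA4L2, 1.059 for BNIP3, 0.8653 for VEGFA, 0.7546 for ANKRD37 and 0.7543 for ADM, and negative for CA12 (-0.985) and HIF1A (-0.3948). At 48 h they were 4.998 for CA9, 2.471 for EGLN3 and 2.278 for NDUFA4L2, and negative for CA12 (-1.328), HIF1A (-0.6832) and EGLN1 (-0.6245).

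Among differences past the threshold, CA12 is the member with a positive value at 8 h and negative values at 24 and 48 h. HIF1A had the same signs, but its 8 h difference (0.0771) did not pass. The EGLN1 difference came from opposite directions, with MYC-ER cells below their 0 h level and parental cells above theirs. For NDUFA4L2 all values rest on 17 to 106 counts per library. The ADM difference at 24 h did not pass when MYC-ER 0 h replicate 2, MYC-ER 24 h replicate 1 or 2, parental 0 h replicate 1 or 3, or parental 24 h replicate 1 or 2 was left out (0.66 to 0.93 over all libraries left out). The HIF1A difference at 24 h did not pass without MYC-ER 0 h replicate 2, MYC-ER 24 h replicate 2 or 3, parental 0 h replicate 1 or 3, or any 1 of the 3 parental 24 h libraries (-0.60 to -0.24 over all libraries left out).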

How the results depend on the processing

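The alternatives were scaling by library size alone, by DESeq2 size factors or by the upper quartile, testing without the low-count filter or with a minimum of 10 counts in each library, the DESeq2 Wald test, a fit to only the groups compared, a replicate block, removal of the GC trend, and each library left out in turn. No value past the threshold changed direction under these, but 23 values that did not pass changed sign, among them HIF1A in MYC-ER cells at 48 h (0.08 by library size alone) and in parental cells at 8 h (-0.01 with the GC trend removed). Of 216 counts of called members and HIF targets under the whole-table alternatives, 213 stayed within 1.5 times of the main count, as did all 180 with a library left out. The other 3 came from the fit to only the groups compared, which gave 2 members in place of 7 and 14 HIF targets in place of 25 in parental cells at 8 h, and 17 HIF targets in place of 28 at 48 h. That fit has fewer libraries to estimate the spread. Of 1368 values of single genes under the whole-table alternatives, 34 lost and 25 gained the threshold, and of 1092 with a library left out, 40 lost and 9 gained it.

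Over 9795 genes and both lines together, deviations of same-numbered libraries correlated at -0.428 to 0.586 (median -0.00171). Those of different-numbered libraries correlated at -0.526 to 0.475 (median 0.00829), and 8 of 24 libraries went best with their own number. These values pool the lines and many genes, so they cannot exclude replicate differences shared within a line. In parental cells CA9, EGLN3, ANKRD37, ADM and BNIP3 were above their group means in replicate 3 at 0, 8, 24 and 48 h. With the replicate block 8, 9 and 8 members were called at 8, 24 and 48 h in MYC-ER cells and 7, 10 and 7 in parental cells. Of the 22158 genes tested, that fit called 14890, 13572 and 9692 in MYC-ER cells and 6838, 9410 and 8876 in parental cells.

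Library size alone moved the median of all genes by over 0.1 in several comparisons. In MYC-ER cells at 48 h against 0 h the median went from 0.03 to 0.19 and the share of calls that were higher from 53.0% to 73.8%. From 8 to 24 h they went from 0.05 to 0.26 and from 51.2% to 67.8%, and in the interaction at 48 h from 0.07 to 0.175 and from 52.5% to 63.5%. Upper quartile scaling moved the median from -0.10 to -0.24 in MYC-ER cells at 8 h, from 0.05 to 0.16 from 8 to 24 h and from -0.08 to -0.18 in the interaction at 8 h. It also moved the share of higher calls in parental cells at 24 h from 49.4% to 40.0%. By library size alone the EGLN1 change at 48 h (-0.11), the HIF1A change at 8 h (0.22) and the VEGFA change from 8 to 24 h (-0.07) in MYC-ER cells did not pass. With the GC trend removed, NDUFA4L2 in parental cells at 24 h (-0.48), HIF1A in the interaction at 24 h (-0.12) and EGLN1 in parental cells at 24 and 48 h (0.23 each) did not pass. The cause was not tested for any of these.

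Among values with a library left out, the EGLN3 and EGLN1 changes from 8 to 24 h passed without MYC-ER 8 h replicate 3 (0.81 and 0.29). The ADM changes in parental cells passed at 24 h without its replicate 1 (0.60) and at 48 h without its replicate 1 (0.58). The differences between lines passed for ADM at 8 h without parental 8 h replicate 3 (0.70) and for ANKRD37 at 48 h without parental 0 h replicate 2 (0.47). Depth limits NDUFA4L2 (17 to 106 counts per library) and CA9 in MYC-ER cells before 4-OHT (26 to 44 counts).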

Other observations

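Some listed HIF targets were barely present. PLIN2, a lipid droplet protein, averaged at most 0.117 CPM in any group and had 0 counts in the 3 MYC-ER libraries at 24 h, so its call as a fall there (edgeR adjusted p 0.0159) rests on 0 to 17 counts per library at 0 h. EPO, the hormone of red cell formation, did not pass the filter and had at most 9 counts in a library.

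The fibroblast markers COL1A1 and DCN, named after their values were seen, were detected in all groups. COL1A1 averaged 214.7 ± 5.0 CPM and DCN 156.5 ± 0.9 CPM in MYC-ER cells at 0 h, against 55.5 ± 2.5 and 49.4 ± 2.3 CPM at 8 h (SD, n = 3). The 7 summed fibroblast markers were at 370 to 377 CPM in that 0 h group and at 77.3 to 133 CPM in the others. That group is the reference of the MYC-ER changes above, and the part of these markers in them was not tested. Of the basal keratins, also named after their values were seen, KRT14 averaged 625.8 ± 23.6 CPM in MYC-ER and 9725 ± 1870 CPM in parental cells at 0 h, whereas KRT5 averaged 12530 ± 238 and 13280 ± 1140 CPM (SD, n = 3).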
